A study of Mus musculus with 21 samples.

Results

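The desmosome genes described here are 10 of the 23713 genes in the deposited count table, taken by their gene names. They are the desmogleins Dsg1a, Dsg1b, Dsg2 and Dsg3, the desmocollins Dsc1, Dsc2 and Dsc3, and the plaque proteins Dsp, Jup and Pkp1. All 10 were found, and all 10 passed the filter on low counts in every comparison. Bulk mRNA was sequenced from keratinocytes, which make up the epidermis, after they were freed from mouse tail skin with trypsin and dispase. The libraries come from 3 mouse models of basal cell carcinoma (BCC), a skin tumour driven by Hedgehog signalling, and from tumour-free controls (Con). The name SmoM2 stands for activated Smoothened, which switches the Hedgehog pathway on. Gnas-eKO stands for a knockout of Gnas, which encodes the stimulatory G protein alpha subunit upstream of cAMP. PKI names a protein kinase A inhibitor, whose construct the labels do not describe. Each model had 3 Con and 4 BCC libraries, 21 in all. The time from tumour induction to sampling was 29 days for SmoM2, 42 for Gnas-eKO and 57 for PKI. SmoM2 was prepared as batch A, Gnas-eKO as B and PKI as C, and so model, day and batch cannot be told apart, although each contrast of BCC with Con stays inside 1 batch. The genotype of the controls, the promoters that drive any Cre or transgene, the strains and the ages are not given in the sources used here.

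Desmosomes are the junctions that rivet epidermal cells to one another. The desmogleins and desmocollins are cadherins that reach across the gap between cells, and plakoglobin (Jup), plakophilins and desmoplakin (Dsp) form the plaque that ties their tails to the keratin filaments. In stratified epidermis the cadherins change with depth: Dsg3 and Dsc3 are mostly made in the lower layers and the Dsg1 and Dsc1 genes in the upper ones, while Dsg2 and Dsc2 are best known from simple epithelia and heart. The mouse has several Dsg1 genes in place of the single human one. The measurements below are of RNA, and the protein in the junctions was not measured.

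Of the 10 members, Dsp and Jup were matched in the RefSeq promoter table (GRCm38.p6), and the 250 bases before the start site of each are shown because both are plaque genes, of which Jup and not Dsp was called in the test of a difference between the PKI and SmoM2 effects. Capitals mark matches, on either strand, to a GC box (GGGCGG) or a CCAAT box (CCAAT), which do not overlap here. The windows are chr13:38151044-38151293 on the plus strand for Dsp and chr11:100397791-100398040 on the minus strand for Jup, both written from 5′ to 3′ toward the gene.
Dsp: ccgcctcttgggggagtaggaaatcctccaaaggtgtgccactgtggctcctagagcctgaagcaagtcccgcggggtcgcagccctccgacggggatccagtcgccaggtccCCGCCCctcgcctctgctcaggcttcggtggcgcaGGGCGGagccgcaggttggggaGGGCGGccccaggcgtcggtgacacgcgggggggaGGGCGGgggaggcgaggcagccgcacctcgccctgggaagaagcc
Jup: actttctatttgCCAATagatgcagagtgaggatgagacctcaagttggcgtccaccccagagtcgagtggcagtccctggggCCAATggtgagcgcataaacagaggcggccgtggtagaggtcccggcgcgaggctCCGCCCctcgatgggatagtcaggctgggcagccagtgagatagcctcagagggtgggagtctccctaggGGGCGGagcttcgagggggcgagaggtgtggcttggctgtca
The Dsp window holds 4 GC boxes, which begin 137, 102, 80 and 45 bases before the start, the first of them on the opposite strand. The Jup window holds 2 GC boxes, 112 and 42 bases before the start, the first on the opposite strand, and 2 CCAAT boxes 238 and 167 bases before it. A GC box occurs in 32.7% and a CCAAT box in 33.8% of 32851 promoter windows of this length. Neither window holds the letters of an AP-1 site (TGANTCA, in 6.75% of windows), a cAMP response element (TGACGTCA, 1.55%) or its shorter core TGACG (17.8%), a GLI site (GACCACCCA, 0.225%), a GRHL site (AACCGGTT, 0.116%) or a TATA box (TATAAA, 12.4%). A match is a description of the letters, and its absence says only that these letters are not in these windows.

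The genes fall into a cadherin cluster and 3 separate plaque genes. In GENCODE M21 (mouse build GRCm38), the 7 cadherin members lie with Dsg1c and Dsg4 within 644 kb of chromosome 18, from 19960930 to 20604521. The desmocollins are on the minus strand and the desmogleins on the plus strand. Dsp lies on chromosome 13 from 38151294 to 38198577 on the plus strand, Jup on chromosome 11 from 100368958 to 100397763 on the minus strand and Pkp1 on chromosome 1 from 135871395 to 135919207 on the minus strand. Dsp and Dsg2 each overlap a gene on the opposite strand (Gm10129 and Gm16090), and Pkp1 overlaps Gm36938 on its own strand. The setting used to count strands is not given in the sources used here, so reads in those overlaps may be split.

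Library totals ran from 16645858 to 22251132 counts, and 3 counts correspond to at most 0.189 CPM, a unit that scales counts to a common library size, far below every member's level. The keratinocyte label was checked with Krt14, the keratin of basal cells, which lay between 3859 and 15210 CPM over all 21 libraries. Gnas was at 172 to 178 CPM in Gnas-eKO Con and 51.1 to 115 CPM in Gnas-eKO BCC, and Smo at 93.7 to 111 CPM in SmoM2 Con and 283 to 312 CPM in SmoM2 BCC. By edgeR that Gnas fall was not called (log2 fold change -1.11, adjusted p = 0.0647), and that Smo rise was (1.55, 1.13e-06). Smo was also higher in PKI BCC (0.53, edgeR adjusted p = 0.00187), and its 0.85 in Gnas-eKO was not called (0.0503). A rise of Smo was thus not particular to SmoM2. Pkia, which encodes a protein kinase A inhibitor, was at 3.73 to 4.99 CPM in PKI Con and 2.11 to 3.74 CPM in PKI BCC, and so was not higher there (log2 fold change -0.62, edgeR adjusted p = 0.0956). Whether the PKI construct would be counted as Pkia is not known, so this neither checks nor contradicts that label. In a principal component analysis of all libraries, Gnas-eKO BCC replicate 2 stood apart from the other BCC libraries on the first component, at -20.4 against 32.4 to 59.4, with all Con libraries between -57.2 and -40.4. The Gnas-eKO fold changes of BCC against Con of the 10 members are therefore given with and without it. Their shares and ratios, and the values of the other lists, use all libraries. Each of the 21 libraries has a name of its own in the column headers, in the form of an animal identifier, but the labels do not state that the libraries of a group came from separate mice. The p-values measure the spread between these libraries. The letters that begin these names differ between SmoM2 Con and SmoM2 BCC, and SmoM2 Con has the same letters as every Gnas-eKO library. Their meaning is not given, so whether SmoM2 Con and BCC came from 1 cohort is not known, although both are labelled batch A.

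In control epidermis the plaque genes Dsp and Pkp1 had the highest levels per length of the 10 members. Per kilobase of annotated exon, Dsp was at 740 ± 55.7 CPM and Pkp1 at 739 ± 58.6 CPM (SD, n = 9 Con libraries), and Dsp was the higher of the 2 in 6 of 9 libraries. Dsg1a followed at 519 ± 78.8, Dsc3 at 407 ± 23.7 and Jup at 336 ± 35.2 CPM per kb. Those 3 kept their order in 9 of 9 libraries although the ranges of neighbours overlapped. Dsc1 was at 168 ± 35.9, Dsg1b at 96.2 ± 14.9 and Dsg3 at 62.3 ± 7.49 CPM per kb, each clear of its neighbours. Dsg2 at 9.07 ± 0.748 and Dsc2 at 7.91 ± 3.31 CPM per kb were the lowest, and their order held in 5 of 9 libraries. The tail epidermis thus carried much RNA of the upper-layer desmoglein Dsg1a and of the lower-layer desmocollin Dsc3, and little of the simple-epithelium cadherins. Dsc2 was the member whose control level varied most between models, with means (SD, n = 3) of 42.7 ± 8.41 CPM in SmoM2 Con, 60.3 ± 7.19 in Gnas-eKO Con and 22.2 ± 2.79 in PKI Con.

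In SmoM2 tumours most desmosome genes fell. By edgeR's quasi-likelihood test with Benjamini-Hochberg adjustment over all genes, 7 of 10 members were lower in BCC (Dsg1a, Dsg1b, Dsc1, Dsc3, Dsp, Jup and Pkp1), 1 was higher (Dsg3) and Dsg2 and Dsc2 were not called. Over all 16370 genes tested, 29.7% were called, 13.5% as lower and 16.2% as higher. The 4 BCC libraries lay all below the 3 Con libraries for the same 7 members and all above them for Dsg2 and Dsg3, where 38.8% of all genes had groups without overlap, 19.2% with BCC lower and 19.6% with BCC higher. The median log2 fold change of the members was -0.64, beside 0.00 for all genes tested. In bulk samples, fewer cells of a type and less RNA per cell cannot be told apart.

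In PKI tumours the members went both ways. Dsg1a, Dsc3, Dsp and Pkp1 were lower in BCC, Dsg2, Dsg3 and Dsc2 were higher, and Dsg1b, Dsc1 and Jup were not called (edgeR), where 34.5% of 16397 genes were called, 15.8% as lower and 18.7% as higher. The libraries of BCC and Con did not overlap for the same 7 members, as for 43.2% of all genes (20.8% with BCC lower, 22.4% with BCC higher). The median log2 fold change of the members was -0.24, beside 0.00 for all genes. These calls were less secure than in SmoM2: those of Dsg3 and Dsc2 held in each of 7 fits that left out 1 library, and those of the other 5 were lost in at least 2. Limma on the authors' values did not call Dsc3, Dsp and Pkp1 (adjusted p of 0.0534, 0.117 and 0.0566), and a joint fit of all 21 libraries did not call Dsg2, Dsc3, Dsp and Pkp1 (0.122, 0.194, 0.13 and 0.1). Without a filter on low counts, edgeR did not call Dsg1a (0.057).

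In Gnas-eKO tumours no member passed the threshold in edgeR with all 7 libraries, where 1.63% of 16409 genes were called, 1.46% as higher and 0.165% as lower. At an unadjusted p under 0.05 there were 4 members, beside 19.6% of all genes. DESeq2 called 3 (Dsg1b, Dsc1 and Pkp1, all lower), beside 9.35% of all genes, and limma on the authors' normalized values called 0, beside 1.5%. The median log2 fold change of the members was -0.57, beside 0.02 for all genes, and the BCC libraries lay all below Con for 5 members (Dsg1b, Dsc1, Dsp, Jup and Pkp1), where 9.7% of all genes had BCC all below, 9.98% all above and 19.7% either. Without BCC replicate 2, 5 members were lower (Dsg1a, Dsg1b, Dsc1, Jup and Pkp1), where 11.8% of 16195 genes were called, 4.43% as lower and 7.36% as higher. The groups then did not overlap for 7 members, adding Dsg1a and Dsc3, as for 34.5% of all genes (17.5% with BCC lower, 16.9% with BCC higher).

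**Figure D1:**
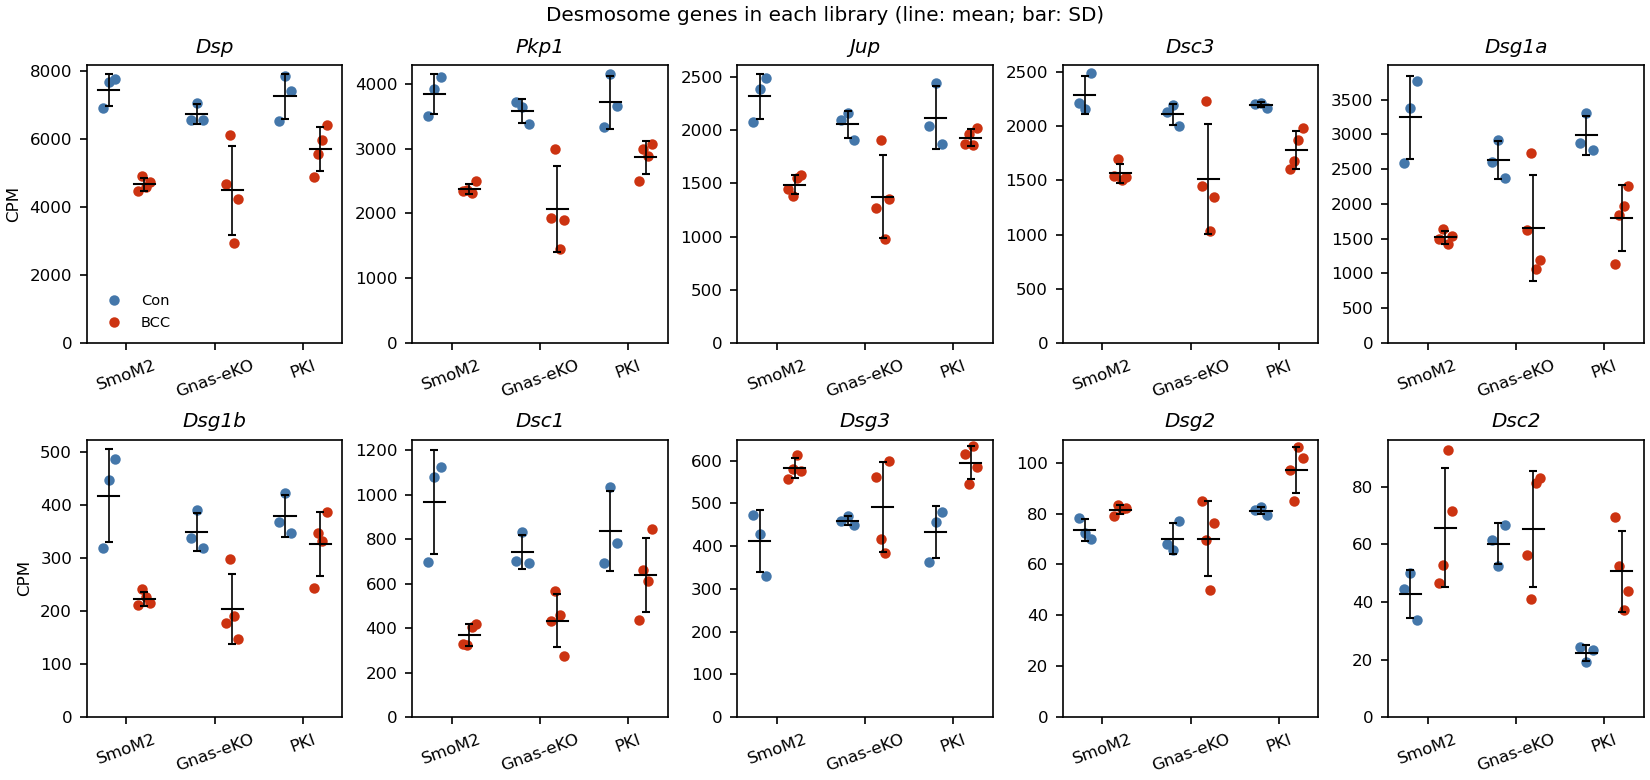
CPM (TMM-scaled) of the 10 desmosome genes in each library, Con in blue (n = 3) and BCC in red (n = 4) for each model, with the mean as a line and the SD as a bar. In SmoM2 the 4 BCC points of Dsp sit between 4472 and 4905, below all Con points, while 1 Gnas-eKO BCC library sits near its controls at 6126.

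Desmoplakin, which anchors keratin filaments in the plaque, was lower in the tumours of SmoM2 and of PKI. Dsp was at 6910, 7675 and 7764 CPM in SmoM2 Con and at 4472, 4905, 4582 and 4723 CPM in SmoM2 BCC. The edgeR fit gave a log2 change of -0.66 (SE 0.07, adjusted p = 0.000122), a level 36.7% lower. In PKI it was at 6544, 7844 and 7407 CPM in Con and at 4879, 5553, 5966 and 6410 CPM in BCC, all below the lowest Con library. That log2 fold change was -0.34 (edgeR, SE 0.11 and adjusted p = 0.0378), and the call was lost without Con replicates 2 or 3 or BCC replicates 1, 2 or 3, at adjusted p of 0.0606 to 0.144. In Gnas-eKO, Con was at 6560, 7071 and 6572 CPM and BCC at 4673, 6126, 2953 and 4223 CPM, the most scattered BCC group of Dsp. The log2 fold change there was -0.57 (edgeR, SE 0.26 and adjusted p = 0.276), and -0.75 (SE 0.23, adjusted p = 0.0808) without BCC replicate 2.

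Plakophilin 1, which clusters desmosomal proteins in the upper epidermis, was lower in the same models as Dsp. Pkp1 was at 3502, 3922 and 4100 CPM in SmoM2 Con and at 2343, 2362, 2320 and 2493 CPM in SmoM2 BCC; edgeR put the log2 fold change at -0.68 (SE 0.07, adjusted p = 0.000128). In PKI, Con was at 3337, 4150 and 3657 CPM and BCC at 2496, 2998, 2884 and 3076 CPM, again with no overlap. That log2 fold change was -0.36 (edgeR, SE 0.10 and adjusted p = 0.0236), lost without Con replicate 2 or 3 at adjusted p of 0.0662 to 0.107. In Gnas-eKO, Con was at 3727, 3635 and 3375 CPM and BCC at 1935, 2998, 1447 and 1893 CPM. By edgeR the log2 fold change was -0.78 (SE 0.25, adjusted p = 0.146) with all libraries and -1.01 (SE 0.20, adjusted p = 0.0156) without BCC replicate 2.

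Plakoglobin, which binds the cadherin tails and is shared with adherens junctions, was the 1 plaque gene among the 10 members whose change was called as different between PKI and SmoM2. Jup was at 2079, 2390 and 2491 CPM in SmoM2 Con and at 1446, 1382, 1552 and 1575 CPM in SmoM2 BCC; edgeR put the log2 fold change at -0.62 (SE 0.08, adjusted p = 0.000441). In PKI it was at 2044, 2444 and 1873 CPM in Con and at 1869, 1967, 1863 and 2026 CPM in BCC, and the groups overlapped. The PKI log2 fold change of -0.12 (edgeR, SE 0.10 and adjusted p = 0.362) was not called in any of the fits made with other settings or with 1 library left out. In Gnas-eKO, Con was at 2095, 2160 and 1912 CPM and BCC at 1273, 1905, 977 and 1349 CPM, with BCC replicate 2 just under the lowest control. The edgeR fit gave a log2 change of -0.57 (SE 0.23, adjusted p = 0.224), and -0.76 (SE 0.19, adjusted p = 0.0402) without that library.

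The upper-layer desmoglein Dsg1a fell in SmoM2 and PKI. It was at 2586, 3385 and 3763 CPM in SmoM2 Con and at 1489, 1637, 1415 and 1532 CPM in SmoM2 BCC; edgeR put the log2 fold change at -1.08 (SE 0.12, adjusted p = 0.000142), a level 52.7% lower. In PKI, Con was at 2878, 3302 and 2771 CPM and BCC at 1131, 1838, 1970 and 2254 CPM. By edgeR the log2 fold change was -0.72 (SE 0.21, adjusted p = 0.0292), and the call was lost without any 1 of the 3 Con libraries or BCC replicate 2, at adjusted p of 0.0595 to 0.0966. In Gnas-eKO, Con was at 2600, 2921 and 2369 CPM and BCC at 1629, 2734, 1058 and 1195 CPM, replicate 2 lying within the controls. The edgeR fit gave a log2 change of -0.66 (SE 0.32, adjusted p = 0.303), and -1.01 (SE 0.22, adjusted p = 0.0247) without replicate 2.

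Dsg1b, its neighbour in the cluster, fell in SmoM2. It was at 318, 446 and 486 CPM in SmoM2 Con and at 211, 241, 226 and 215 CPM in SmoM2 BCC; edgeR put the log2 fold change at -0.89 (SE 0.13, adjusted p = 0.00109). In PKI the BCC libraries, at 244, 347, 332 and 386 CPM, overlapped Con at 368, 422 and 347 CPM, and the log2 fold change was -0.20 (edgeR, SE 0.15 and adjusted p = 0.324). In Gnas-eKO, Con was at 337, 390 and 319 CPM and BCC at 177, 298, 190 and 147 CPM, with no overlap. By edgeR the log2 fold change was -0.77 (SE 0.23, adjusted p = 0.12), and -1.01 (SE 0.15, adjusted p = 0.00614) without BCC replicate 2. The Dsg1 genes are near copies: of the 75-base windows in annotated Dsg1b transcripts, 37.5% also occur in Dsg1a, and 26.0% of those in Dsg1a occur in Dsg1b. The counts of both are therefore uncertain. With Dsg1a, Dsg1b and Dsg1c counted as 1 gene, the log2 fold change was -1.06 in SmoM2 (edgeR, SE 0.12 and adjusted p = 0.000172), -0.67 in Gnas-eKO (SE 0.31, adjusted p = 0.283) and -0.65 in PKI (SE 0.20, adjusted p = 0.034).

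Dsg3, the desmoglein of the lower layers, rose in the same 2 models. It was at 473, 429 and 331 CPM in SmoM2 Con and at 557, 581, 613 and 576 CPM in SmoM2 BCC; edgeR put the log2 fold change at 0.52 (SE 0.11, adjusted p = 0.00632). In PKI, Con was at 363, 457 and 479 CPM and BCC at 616, 546, 634 and 585 CPM; edgeR put the log2 fold change at 0.47 (SE 0.11, adjusted p = 0.00914). Every BCC library of both models was above every control of its model, and both calls held with any 1 library left out. In Gnas-eKO the 4 BCC libraries, at 562, 417, 384 and 600 CPM, lay on both sides of Con at 459, 470 and 449 CPM. The log2 fold change there was 0.11 (edgeR, SE 0.18 and adjusted p = 0.799), and 0.18 (SE 0.19, adjusted p = 0.604) without BCC replicate 2.

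Dsg2, a desmoglein of low level in epidermis, was slightly higher in PKI BCC. Con was at 81.3, 82.7 and 79.6 CPM and BCC at 97.0, 84.9, 106 and 102 CPM; edgeR put the log2 fold change at 0.27 (SE 0.08, adjusted p = 0.0324). The groups did not overlap, but the call was lost without any 1 Con library or BCC replicates 1, 3 or 4, at adjusted p of 0.0661 to 0.1. In SmoM2, Con was at 70.1 to 78.4 CPM and BCC at 79.0 to 83.2 CPM, and the log2 fold change of 0.16 was not called (edgeR, SE 0.06 and adjusted p = 0.0892). In Gnas-eKO, BCC spread from 49.9 to 84.8 CPM around Con at 65.5 to 77.0 CPM; edgeR put the log2 fold change at 0.01 (SE 0.18, adjusted p = 0.982), and at 0.02 (SE 0.20, adjusted p = 0.963) without BCC replicate 2.

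**Figure D2:**
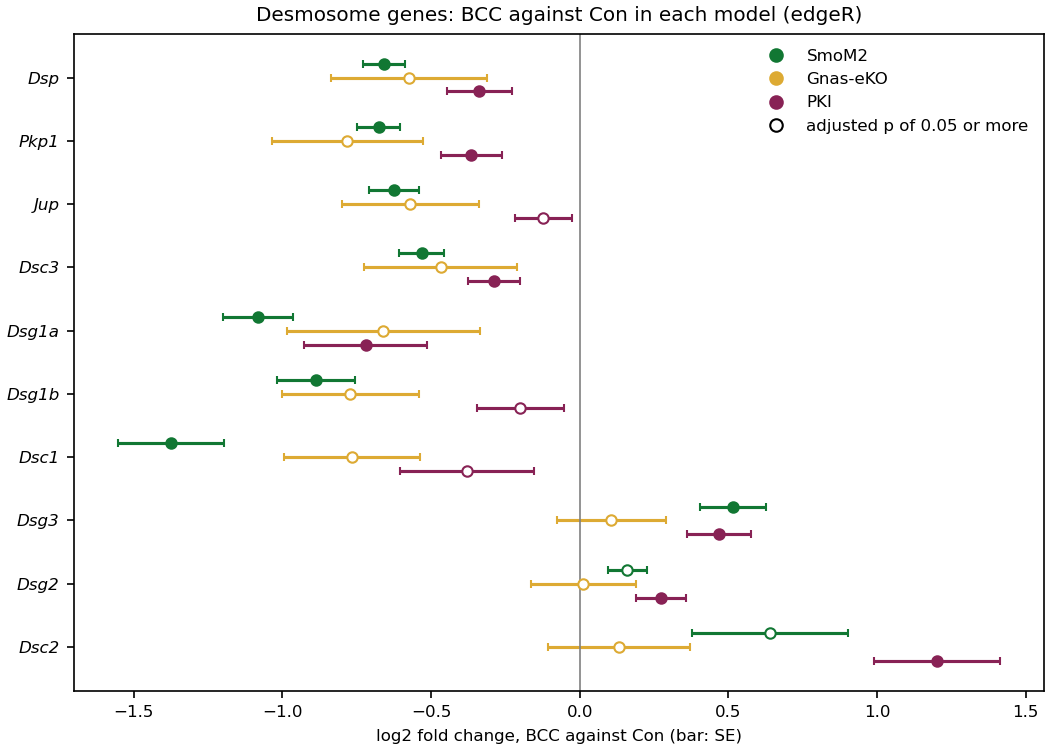
Log2 fold change of BCC against Con for each desmosome gene (x axis) in SmoM2 (green), Gnas-eKO (yellow) and PKI (purple) from edgeR, with the SE as a bar and open circles where the adjusted p was 0.05 or more. The largest drop was that of Dsc1 in SmoM2 at -1.37 and the largest rise that of Dsc2 in PKI at 1.20, and the Gnas-eKO bars are the widest for 9 of the 10 genes, all but Dsc2.

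Dsc1, the desmocollin of the upper layers, had the largest fall of any member in SmoM2. It was at 695, 1078 and 1124 CPM in SmoM2 Con and at 328, 324, 403 and 420 CPM in SmoM2 BCC. The edgeR fit gave a log2 change of -1.37 (SE 0.18, adjusted p = 0.000874), a level 61.4% lower. In PKI, Con was at 692, 1036 and 781 CPM and BCC at 436, 661, 610 and 845 CPM, so the groups overlapped, and the log2 fold change was -0.38 (edgeR, SE 0.23 and adjusted p = 0.231). In Gnas-eKO the BCC libraries, at 433, 567, 457 and 276 CPM, all lay below Con at 701, 832 and 693 CPM. By edgeR the log2 fold change was -0.77 (SE 0.23, adjusted p = 0.122), and -0.92 (SE 0.21, adjusted p = 0.0318) without BCC replicate 2.

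Dsc3, the most abundant desmocollin, was 30.8% lower in SmoM2 BCC and was also called in PKI. It was at 2216, 2158 and 2488 CPM in SmoM2 Con and at 1536, 1697, 1502 and 1534 CPM in SmoM2 BCC; edgeR put the log2 fold change at -0.53 (SE 0.08, adjusted p = 0.000698). In PKI, Con was at 2200, 2217 and 2170 CPM and BCC at 1601, 1675, 1873 and 1983 CPM; edgeR put the log2 fold change at -0.29 (SE 0.09, adjusted p = 0.0304). The PKI call was lost without any 1 Con library or BCC replicates 1 or 2, at adjusted p of 0.0612 to 0.0926. In Gnas-eKO, Con was at 2134, 2193 and 1997 CPM, while BCC was at 1447, 2229, 1034 and 1347 CPM, with replicate 2 above every control. The edgeR fit gave a log2 change of -0.47 (SE 0.26, adjusted p = 0.356), and -0.71 (SE 0.19, adjusted p = 0.0516) without replicate 2. Dsc3 and Dsg3, both lower-layer cadherins, thus moved in opposite directions in SmoM2 and in PKI.

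Dsc2 had the largest rise of any member, in PKI. It was at 24.2, 19.0 and 23.4 CPM in PKI Con and at 69.5, 52.4, 37.1 and 43.7 CPM in PKI BCC. By edgeR the log2 fold change was 1.20 (SE 0.21, adjusted p = 0.00355), and the call held with any 1 library left out. The PKI controls were also the lowest controls for this gene, and the PKI tumours, at 37.1 to 69.5 CPM, spanned levels also seen in SmoM2 Con (33.6 to 50.1 CPM) and Gnas-eKO Con (52.5 to 66.6 CPM). In SmoM2 the BCC libraries, at 46.6, 53.0, 92.8 and 71.5 CPM, overlapped Con, and the log2 fold change was 0.64 (edgeR, SE 0.26 and adjusted p = 0.114). DESeq2 called it at an adjusted p of 0.0188. In Gnas-eKO, BCC was at 56.5, 41.2, 81.3 and 83.1 CPM; edgeR put the log2 fold change at 0.13 (SE 0.24, adjusted p = 0.809), and at 0.30 (SE 0.18, adjusted p = 0.322) without BCC replicate 2.

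Whether the change from Con to BCC differed between models was tested directly as a difference of the 2 effects. Between PKI and SmoM2, 3 members differed by edgeR, where 24.9% of 17261 genes did, 12.6% with the higher value in PKI and 12.3% with the lower. The effect was higher in PKI by 0.50 for Jup (SE 0.13, adjusted p = 0.0113), by 0.69 for Dsg1b (SE 0.21, adjusted p = 0.0317) and by 1.00 for Dsc1 (SE 0.32, adjusted p = 0.0358), all on the log2 scale. The Jup call held with any 1 of the 14 libraries left out. That of Dsg1b was lost in 7 of the 14 fits (without SmoM2 Con 2 or 3, SmoM2 BCC 1 or 4, PKI Con 1 or 3, or PKI BCC 2) at adjusted p of 0.0541 to 0.0834, and with the Dsg1 genes summed the difference was 0.41 (SE 0.25, adjusted p = 0.256). That of Dsc1 was lost in 8 (without SmoM2 Con 2 or 3, SmoM2 BCC 1 or 2, PKI Con 1 or 3, or PKI BCC 2 or 4) at adjusted p of 0.0549 to 0.0903, and without a filter on low counts (0.0625). Dsp and Pkp1 had differences of 0.32 (edgeR, SE 0.13 and adjusted p = 0.0789) and 0.31 (edgeR, SE 0.12 and adjusted p = 0.08). Both crossed the threshold without PKI BCC replicate 1 (adjusted p of 0.0238 and 0.0308), and Pkp1 also without SmoM2 Con replicate 1 or PKI Con replicate 2 (0.0308 to 0.0493 over these fits). Dsg1a had a difference of 0.36 (edgeR, SE 0.26 and adjusted p = 0.336), which crossed the threshold without PKI BCC replicate 1 (0.53, adjusted p = 0.0352). In this contrast, batch and day cannot be told apart from the model.

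No member differed by edgeR between PKI and Gnas-eKO, where 9.06% of 17254 genes did (4.49% higher and 4.57% lower in PKI), or between Gnas-eKO and SmoM2, where 0.175% of 17151 did (0.0758% higher and 0.0991% lower in Gnas-eKO). At an unadjusted p under 0.05 there was 1 member in the first of these contrasts and 0 in the second, beside 25.3% and 8.74% of all genes. DESeq2 called 1 and 0, beside 13.8% and 1.24%, and limma 0 in both, beside 9.98% and 0.227%. The member nearest the threshold was Dsc2, whose effect was higher in PKI than in Gnas-eKO by 1.07 (edgeR, SE 0.34 and adjusted p = 0.0683). DESeq2 called it (adjusted p = 0.0248), as did edgeR without Gnas-eKO BCC replicate 3 or PKI BCC replicate 3 (adjusted p of 0.0449 and 0.0426). Without Gnas-eKO BCC replicate 2, the Dsg1b effect was higher in PKI than in Gnas-eKO by 0.82 (edgeR adjusted p = 0.0285). The SEs of the 10 Gnas-eKO effects ran from 0.18 to 0.32, against 0.06 to 0.26 in SmoM2 and 0.08 to 0.23 in PKI.

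Seen within a library, the makeup of the desmogleins moved toward Dsg3. Of the summed CPM per kb of the 4 desmogleins, Dsg3 was 8.21% ± 2.73 in SmoM2 Con and 20.1% ± 1.23 in SmoM2 BCC (SD, n = 3 and 4). In PKI it went from 8.99% ± 1.36 to 17.9% ± 4.58, and in Gnas-eKO it was 10.6% ± 0.742 in Con and 18.1% ± 6.40 in BCC, where the groups overlapped (9.58% to 25.1% in BCC). The lowest Gnas-eKO BCC share was that of replicate 2, and the other BCC libraries all lay above Con (9.79% to 11.3%). Dsg1a remained the main desmoglein in every group, with mean shares of 74.0% to 76.5% in Con and 63.0% to 67.3% in BCC. Among the desmocollins, Dsc3 held 68.2% to 71.1% in Con. Its share was 77.2% ± 3.42 in SmoM2 BCC, where that of Dsc1 was 19.5% ± 2.53 against 30.5% ± 5.03 in Con, and the Dsc1 groups did not overlap. In PKI, Dsc1 was 28.6% ± 4.18 in Con and 26.8% ± 3.99 in BCC, a difference smaller than the spread between libraries. These shares and ratios combine genes tested above and were given no test of their own.

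**Figure D3:**
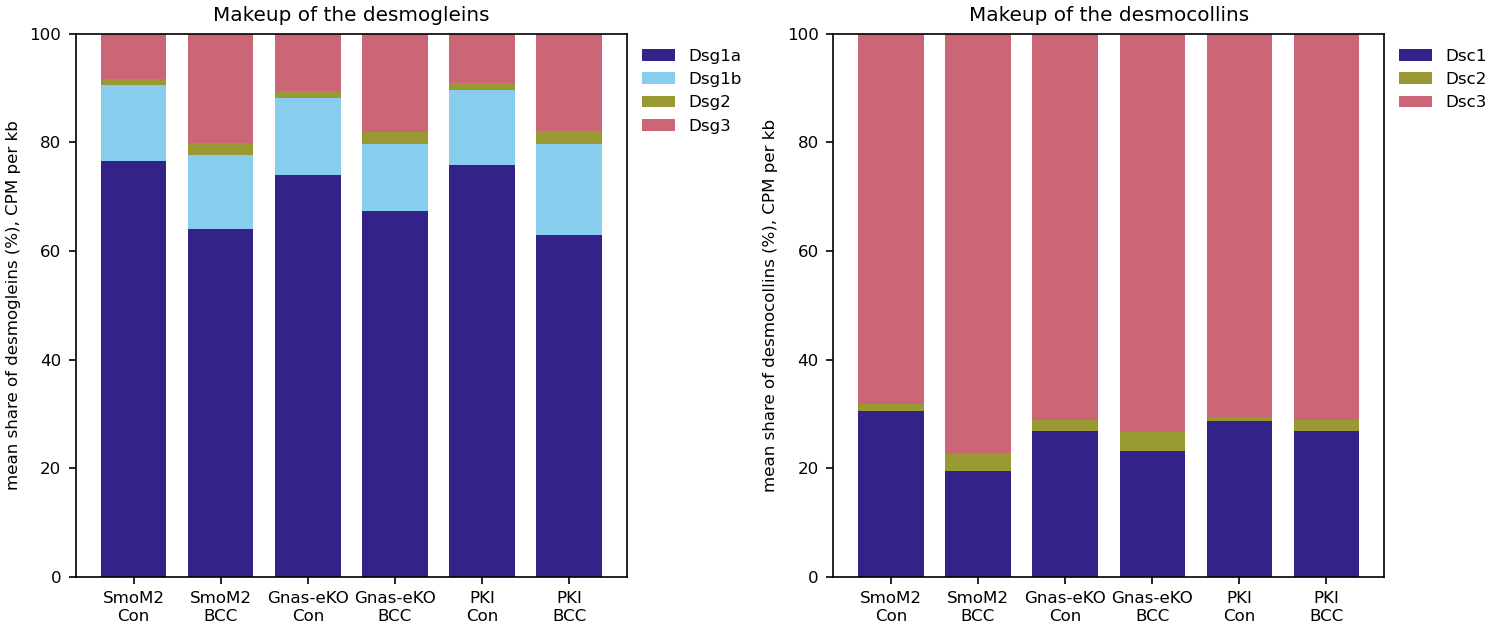
Mean share of each gene in the summed CPM per kb of the 4 desmogleins (left) and the 3 desmocollins (right) in the 6 groups (n = 3 Con, n = 4 BCC), in percent. The Dsg3 share is 8.21% to 10.6% in the Con groups and 17.9% to 20.1% in the BCC groups, and the Dsc1 share is lowest in SmoM2 BCC at 19.5%.

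The log2 ratio of 2 members in a library does not depend on the scaling of the library. The ratio of the summed Dsg1a and Dsg1b to Dsg3 ran from 2.62 to 3.68 in SmoM2 Con and from 1.42 to 1.69 in SmoM2 BCC, and from 2.7 to 3.16 and 1.16 to 2.17 in PKI. Neither model's groups overlapped, with mean differences of -1.57 and -1.16. In Gnas-eKO, BCC replicate 2 was at 2.86, above all of Con (2.58 to 2.82), while the other 3 were at 1.16 to 1.70. The ratio of Dsc1 to Dsc3 differed by -0.82 in SmoM2 without overlap, and by -0.10 in PKI and -0.28 in Gnas-eKO with overlap. The ratio of Dsc2 to Dsc3 was higher in BCC without overlap in SmoM2 (by 1.14) and in PKI (by 1.46), and differed by 0.60 in Gnas-eKO with overlap (-5.39 to -4.91 in Con and -5.76 to -3.67 in BCC). There BCC replicate 2 was at -5.76, below all of Con, and BCC replicates 1, 3 and 4 were at -4.68, -3.67 and -4.02, above all of Con. The ratio of Dsg2 to Dsg3 differed by -0.37 in SmoM2 without overlap, and by -0.09 in Gnas-eKO and -0.21 in PKI with overlap. Among the plaque genes, Pkp1 to Dsp differed by -0.02 in SmoM2 and in PKI and by -0.21 in Gnas-eKO, where all BCC libraries were below Con, and Jup to Dsp differed by 0.03 in SmoM2, by 0.01 in Gnas-eKO and, in PKI, by 0.23, with overlap in each.

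**Figure D4:**
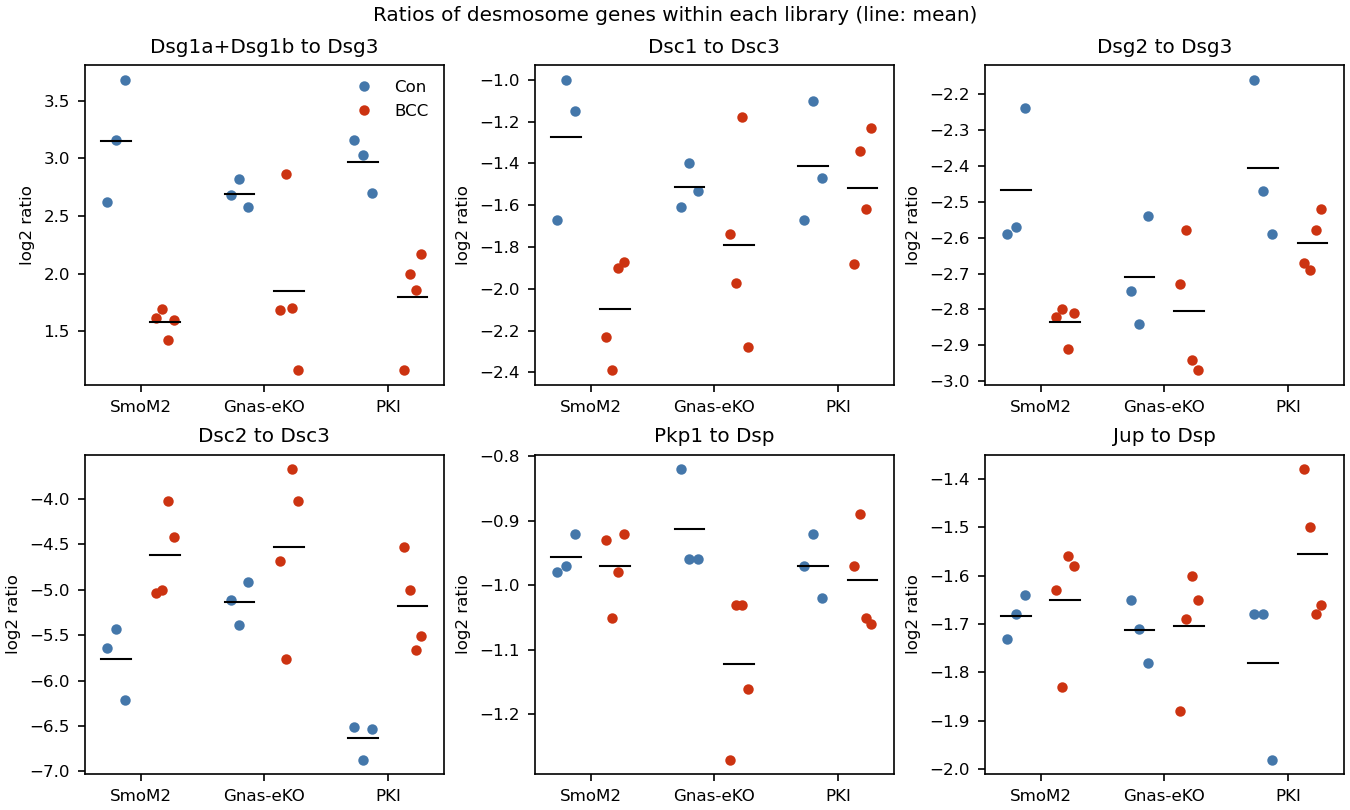
Log2 ratio of CPM between desmosome genes within each library, Con in blue (n = 3) and BCC in red (n = 4) for each model, with the group mean as a line. The ratio of Dsg1a plus Dsg1b to Dsg3 is at 1.42 to 1.69 in SmoM2 BCC, below all its controls, and the single Gnas-eKO BCC library at 2.86 sits above its controls.

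Of 15639 genes tested in all 3 models, those whose log2 CPM followed Dsp most closely over the 21 libraries were Pdpk1 (Pearson r = 0.976), Pkp1 (0.976), Dsc3 (0.969), Paqr3 (0.956) and Zdhhc3 (0.954). These coefficients are descriptions, since libraries of a group share their model and state. Among the other members, r with Dsp was 0.937 for Jup, 0.936 for Dsg1a, 0.887 for Dsg1b and 0.84 for Dsc1. It was 0.207 for Dsg2, -0.37 for Dsg3 and -0.68 for Dsc2. Pdpk1, a kinase that activates Akt, had log2 fold changes of -0.37 in SmoM2 (edgeR adjusted p = 0.00189), of -0.38 (0.219) in Gnas-eKO and of -0.20 (0.112) in PKI.

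A list of 10 further desmosome genes was read beside the members. In SmoM2, 4 of the 10 were lower and 0 higher (edgeR), where 13.5% of all genes were lower and 16.2% higher: Pkp3, a broadly expressed plakophilin, by a log2 fold change of -0.51 (adjusted p = 0.000589), the plakins Evpl and Ppl of the cornified envelope by -0.60 (0.000529) and -0.47 (0.00124), and Perp, a tetraspan desmosome protein, by -0.28 (0.0161). Perp was lost without Con replicate 2 or BCC replicates 1 or 2 (adjusted p of 0.0531 to 0.0569), with limma (0.0545) and in the joint fit (0.0621), and the other 3 held with any 1 library left out. The median of the list was -0.46, beside 0.00 for all genes. In PKI, 4 were higher and 3 lower, with a median of 0.12, where 18.7% of all genes were higher and 15.8% lower. In Gnas-eKO, 0 of 10 were called by edgeR, by DESeq2, by limma or at an unadjusted p under 0.05, with a median of -0.22. The joint fit, which called 14.9% of all genes there, called Pkp3. In SmoM2, Kazn was not called by edgeR (adjusted p = 0.0545), but was by DESeq2, in the joint fit and with replicate number as a block.

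The largest rise in that list was that of Dsg4, a desmoglein of hair and of the uppermost layers, in PKI. It was at 0.841 to 3.8 CPM in PKI Con and 4.94 to 15.7 CPM in PKI BCC; edgeR put the log2 fold change at 2.61 (SE 0.63, adjusted p = 0.0165), lost without Con replicate 2 or 3 at adjusted p of 0.0505 to 0.0521. In SmoM2 it was at 1.93 to 7.79 CPM in Con and 0.407 to 2.92 CPM in BCC (log2 fold change -1.81, SE 0.67, edgeR adjusted p = 0.0828). That difference was called by DESeq2 (adjusted p = 0.0104), by limma (0.0474) and by edgeR without Con replicate 1 (0.0438) or BCC replicate 3 (0.0185). Corneodesmosin (Cdsn), which is laid down outside desmosomes in the outermost layers, was at 299 to 373 CPM in PKI Con and 121 to 162 CPM in PKI BCC. Its log2 fold change of -1.27 (edgeR, SE 0.12 and adjusted p = 0.000188) and that of Ppl, -0.86 (SE 0.15, adjusted p = 0.0032), held with any 1 library left out. The remaining PKI calls were rises of Pkp2, Pkp4 and Kazn (0.97, 0.37 and 0.33) and a fall of Evpl (-0.36), at edgeR adjusted p of 0.0279 to 0.0331. Each of these was lost in 3 to 5 of 7 fits with 1 library left out: without Con 3 and BCC 2 and 3 for Kazn, without Con 2 and 3 and BCC 1 and 2 for Pkp2 and Pkp4, and without Con 2 and 3 and BCC 1, 3 and 4 for Evpl. The adjusted p without 1 of those libraries ran from 0.0522 to 0.137. The joint fit did not call Pkp4 (0.11) or Kazn (0.0897) in PKI.

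**Figure D5:**
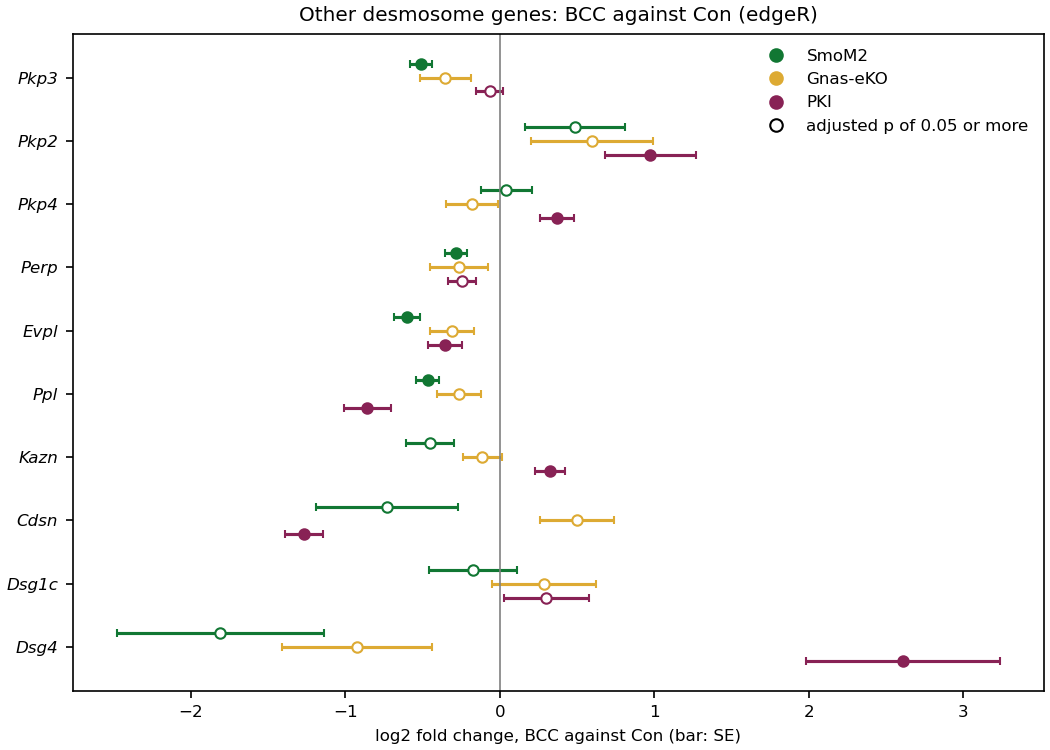
Log2 fold change of BCC against Con for 10 further desmosome genes (x axis) in SmoM2 (green), Gnas-eKO (yellow) and PKI (purple) from edgeR, with the SE as a bar and open circles where the adjusted p was 0.05 or more. Dsg4 is at 2.61 in PKI and -1.81 in SmoM2, and Cdsn at -1.27 in PKI.

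Genes that work beside desmosomes moved as follows. Among 9 adherens junction genes, Ctnnb1 (beta-catenin) and Cdh3 (P-cadherin) were higher in SmoM2, with log2 fold changes of 0.63 and 0.47 (edgeR adjusted p of 0.00032 and 0.000694), and in PKI, with 0.47 and 0.60 (adjusted p of 0.000916 and 0.000958). Vcl (vinculin) was higher in PKI by 0.67 (adjusted p = 0.000738) and Nectin1 lower in SmoM2 by -0.44 (adjusted p = 0.0048). By edgeR no other gene of that list was called in either model, beside 29.7% of all genes called in SmoM2 and 34.5% in PKI. DESeq2 called 4 of the 9 in SmoM2, where edgeR called 3, beside 32.4% of all genes by DESeq2. Of 7 keratin partners, 5 were lower and 0 higher in SmoM2, where 13.5% of all genes were lower and 16.2% higher, among them Krt2 (-1.80, adjusted p = 0.00145), Krt14 (-1.20, 3.65e-05) and the low-level Krt77 (-1.16, 0.00473). In PKI, where the shares were 15.8% and 18.7%, 3 were lower, led by Krt2 (-2.37, adjusted p = 0.0189) and Krt15 (-0.94, 0.00024), and Krt1 was higher (1.80, 0.0414). The Krt1 call in PKI was lost in 6 of 7 fits with 1 library left out, all but that without BCC replicate 1 (adjusted p of 0.0574 to 0.0874), and that of Krt2 without Con replicate 2 or BCC replicate 4 (0.0509 to 0.051). Krt1 was also lost without a filter on low counts (0.0875). In Gnas-eKO, 0 of the 9 and 0 of the 7 were called by edgeR or limma, 2 and 2 at an unadjusted p under 0.05 (19.6% of all genes) and 2 and 2 by DESeq2 (9.35%).

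Of 9 genes of the proteolysis that sheds corneodesmosomes, Spink5, an inhibitor of the kallikreins, was lower in PKI at -1.13 on the log2 scale (edgeR adjusted p = 0.00407) and Prss8 lower by -0.59 (0.00497), while Klk6 was higher by 2.24 (0.00996). In all, 3 of the 8 tested were higher in PKI and 2 lower, and the other 2 higher genes, St14 and Ctsl, are named after their values were seen. In SmoM2, Klk5 was lower by -1.41 (adjusted p = 0.0328) and St14 higher by 0.27 (0.0443), and both were lost with some libraries left out: Klk5 without Con 2 or 3 or BCC 1, St14 in every such fit but that without Con 3 (adjusted p of 0.0583 to 0.117). Klk5 was also lost without a filter on low counts (0.0677) and St14 in the joint fit (0.109). Of 8 transcription factors of stratified epidermis, 6 were lower and 1 higher in SmoM2, beside 13.5% and 16.2% of all genes, the lower ones led by Grhl3 (-1.22, adjusted p = 0.00213), Ovol1 (-0.92, 0.00643) and Klf4 (-0.87, 0.000403). In PKI, where 15.8% of all genes were lower and 18.7% higher, Klf4 was lower by -0.54 (0.00861) and Grhl3 by -0.37 (0.0281), the latter lost without Con 1 or 2 or BCC 3 or 4 (0.0543 to 0.108) and in the joint fit (0.167). In Gnas-eKO, 0 of the 9 and 0 of the 8 were called by edgeR or limma, 3 and 3 at an unadjusted p under 0.05 (19.6% of all genes) and 1 and 2 by DESeq2 (9.35%).

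Markers of cell layers and of other cell types moved with these results, and their part in the desmosome values was not tested. The counts below stand beside 13.5% of all genes lower and 16.2% higher in SmoM2, and 15.8% and 18.7% in PKI, by edgeR. In Gnas-eKO they stand beside 1.63% of all genes called by edgeR, 9.35% by DESeq2, 1.5% by limma and 19.6% at an unadjusted p under 0.05. In PKI, DESeq2 called 37.2% and limma 35.5% of all genes, and 7326 of 16397 had an unadjusted edgeR p under 0.05. Of 5 granular layer markers, 5 were lower in SmoM2 and 0 were called in PKI (edgeR; 0 at an unadjusted p under 0.05, 0 by DESeq2 and 1 by limma). Their summed level was 657 to 903 CPM in SmoM2 Con and 343 to 372 CPM in SmoM2 BCC, against 593 to 740 and 579 to 859 CPM in PKI. In Gnas-eKO they summed to 650 to 729 CPM in Con and 358 to 542 CPM in BCC, and 1 of 5 was lower by edgeR and by limma, with 2 called by DESeq2 and 2 at an unadjusted p under 0.05. Tgm3 carried most of that sum, with means there of 454 CPM in Con and 195 CPM in BCC. Mean Casp14 (106 and 89.1 CPM) and Tgm1 (72.8 and 62.3 CPM) were lower in BCC, and mean Flg2 (12.4 and 24.2 CPM) and Ivl (46.7 and 60.1 CPM) higher. Of 5 spinous markers, of which Dsg1a is 1, 4 were lower in SmoM2, and 3 lower and 1 higher in PKI. Of 7 basal markers, 5 were lower and 1 higher in SmoM2 and 4 lower in PKI. In Gnas-eKO, 0 of the 5 spinous and 0 of the 7 basal markers were called by edgeR or limma, 1 and 1 by DESeq2, and 1 and 2 at an unadjusted p under 0.05. The basal markers there summed to 36527 to 39769 CPM in Con and 16608 to 33600 CPM in BCC, and the spinous ones to 25115 to 33157 and 15150 to 26930 CPM. Hair follicle markers summed to 2194 to 2981 CPM in SmoM2 Con and 6719 to 8453 CPM in SmoM2 BCC, and to 2399 to 2759 and 3931 to 7080 CPM in PKI. Of these markers, 4 of the 5 tested were higher in SmoM2 and 4 of 6 in PKI. In Gnas-eKO the sums were 2338 to 2911 and 3234 to 7481 CPM, and 1 of the 5 tested was higher by edgeR and by limma, with 4 called by DESeq2 and 5 at an unadjusted p under 0.05.

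Fibroblast markers (6 genes) summed to 17.2 to 39.8 CPM in SmoM2 Con and 387 to 525 CPM in SmoM2 BCC, to 15.9 to 27.4 and 94.3 to 579 CPM in Gnas-eKO, and to 15.8 to 43.5 and 84.4 to 145 CPM in PKI. Of these 6 genes, edgeR called 2 as higher in SmoM2, 1 in the Gnas-eKO model and 3 for PKI, while DESeq2 called 3, 5 and 5 and limma 3, 1 and 5. Over all genes and in the same order, edgeR called 29.7%, 1.63% and 34.5%, DESeq2 32.4%, 9.35% and 37.2%, and limma 30.2%, 1.5% and 35.5%. At an unadjusted p under 0.05 there were 5 in Gnas-eKO. Dcn carried most of the sum, with mean BCC levels of 440, 247 and 88.4 CPM in that order. Leukocyte markers (7 genes) summed to 17.3 to 68.4 and 199 to 592 CPM, to 17.7 to 49.6 and 48.3 to 1124 CPM, and to 10.2 to 23.6 and 505 to 2044 CPM in the same order, and 2 of 7 were higher in SmoM2, 0 in Gnas-eKO (edgeR; 3 at an unadjusted p under 0.05, 1 by DESeq2, 0 by limma) and 7 in PKI. S100a9 carried most of that sum in BCC, with means of 332, 392 and 1079 CPM in the same order of models. Ptprc, found on all leukocytes, was not called in SmoM2, with means of 2.91 CPM in Con and 2.66 CPM in BCC. Endothelial markers (4 genes) summed to at most 6.47 CPM in any library, with 1 of the 2 tested higher in SmoM2 and 1 of 2 in PKI, and the 2 of 4 muscle markers in the table at most 0.774 CPM. Melanocyte markers (5 genes) summed to 72.2 to 204 CPM over all libraries, and 2 of 5 were lower in SmoM2 and 4 of 5 in PKI. None of the markers in the table was at 0 in every library of a group.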

How the data were processed

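Bulk RNA was sequenced in 21 libraries of 6 groups, 3 Con and 4 BCC in each of 3 models. The authors deposited estimated counts per gene, of which 32.3% are not whole numbers, and a table of their own TMM-normalized values, a signal without further unit. Per the submitters' processing notes, bcl2fastq 2.20, cutadapt 1.18, STAR 2.7.0f, Partek and the mouse build mm10 were used. The counting tool and its strand setting are not given in the sources used here.

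Counts were rounded, filtered with filterByExpr, scaled by TMM and tested with edgeR 4.0.16 (R 4.3.3; robust glmQLFit and glmQLFTest), separately for each model and, for differences between models, over the libraries of both. P-values were adjusted by Benjamini-Hochberg over all genes tested, with a threshold of 0.05. The SE of a log2 fold change is its size divided by the root of F. CPM used TMM over all 21 libraries, so a ratio of mean CPM can differ slightly from a fitted fold change. Levels per kb used the union exonic length of GENCODE M21. The scripts were tested on simulated data.

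The text names all 10 members, further desmosome genes, up to 3 called genes of each further list and model with the largest change (mean log2 CPM 2 or more), and the 5 genes most correlated with Dsp. Members and lists were chosen with earlier results of these data known. No pair of libraries agreed within sampling noise. Alternatives were DESeq2 1.42.0 size factors and Wald test, no filter, limma 3.58.1 on the authors' values (pseudocount 0.5), the replicate block, summed Dsg1 genes, a joint fit of all 21 libraries and leaving out each library. Totals of 16645858 to 22251132 counts set the precision, and the 3-count floor covers counting error only.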

Additional observations from a re-analysis of the deposited data

Results flagged for a closer look

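Among the desmosome genes, 8 effects of BCC against Con differed between models in edgeR's test of the difference itself. Between PKI and SmoM2 these were 3 of the 10 members and 3 of the 10 further genes, all higher in PKI, where 24.9% of all genes differed, 12.6% with the higher value in PKI. Between PKI and Gnas-eKO they were 0 and 2, where 9.06% of all genes differed, 4.49% higher and 4.57% lower in PKI. Against SmoM2, the PKI effect was higher on the log2 scale by 0.50 for Jup, 0.69 for Dsg1b and 1.00 for Dsc1 (adjusted p of 0.0113, 0.0317 and 0.0358). It was also higher by 4.41 for Dsg4, 0.78 for Kazn and 0.45 for Pkp3 (adjusted p of 0.00816, 0.00978 and 0.00904), and these 3 calls held with any 1 of 14 libraries left out. Against Gnas-eKO, the PKI effect was higher by 3.55 for Dsg4 (adjusted p = 0.02). That call was lost without Gnas-eKO Con replicate 1, PKI Con replicate 2 or PKI Con replicate 3, at adjusted p of 0.0539 to 0.0612, and with the replicate block (0.0514). For Cdsn the difference was -1.77 (adjusted p = 0.00342), lower in PKI, and it held with any 1 library left out. Of 30 pairs of a member and a BCC group, 0 had a library apart by Dixon's criterion. Model, day and batch cannot be told apart in these differences.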

How the results depend on the processing

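Of the members' values under alternatives that used all libraries, 359 kept their direction and side of the threshold, 13 gained a call, 11 lost one and 7 changed sign; with 1 library left out the numbers were 562, 13, 37 and 18. For a part of the other named results, chiefly those called, they were 275, 3, 11 and 0, and 282, 2, 45 and 0. Most uncalled results of the further desmosome genes are outside that part, and some changed. Kazn in SmoM2 gained a call by DESeq2, the replicate block and the joint fit, Pkp3 in Gnas-eKO in the joint fit and Perp in PKI by DESeq2. With 1 library left out, Dsg1c in SmoM2 ran from -0.32 to 0.10, Pkp4 in SmoM2 from -0.12 to 0.29 and Pkp3 in PKI from -0.13 to 0.02. DESeq2's Wald test called 2 members as higher in SmoM2 and 3 as lower in Gnas-eKO, where the joint fit, which pools the spread over models, called 5. Over all genes, DESeq2 called 32.4% in SmoM2 and 9.35% in Gnas-eKO, and the joint fit called 14.9% of 17695 genes in Gnas-eKO. In PKI, limma and the joint fit each called 1 as lower. Over all genes in PKI, limma called 2737 of 16397 as lower (35.5% called in either direction) and the joint fit 2492 of 17695 (29.3%). For PKI against Gnas-eKO, DESeq2 and the replicate block each called 1 as higher, beside 13.8% and 5.36% of all genes called. Genes called in Gnas-eKO were 1535 by DESeq2, 135 with the replicate block and 2644 in the joint fit. For PKI against Gnas-eKO they were 2389 and 925 by DESeq2 and the block, and for Gnas-eKO against SmoM2 212 by DESeq2. The labels share replicate numbers but do not state that these pair libraries. Deviations of same-numbered libraries had r from -0.13 to 0.28, above 0.1 for some pairs of Gnas-eKO and PKI. With so few pairs these values cannot decide whether libraries were paired, and the block is given as an alternative only. The block called Dsc1 as lower in PKI (-0.54, adjusted p = 0.00207) and Dsg4 as lower in SmoM2 (-1.77, 0.00903). It did not call Dsg2 or Krt2 in PKI (0.0724 and 0.0581), St14 in SmoM2 (0.0922) or Dsg4 in PKI against Gnas-eKO (0.0514). Signs changed in Gnas-eKO for Dsg2 (-0.02 with limma, -0.06 with the block), Dsg3 (-0.02, block) and Dsc2 (-0.05, block), for Dsg1a in PKI against Gnas-eKO (0.0046 with limma, 0.02 with summed Dsg1 genes) and for Dsc3 in Gnas-eKO against SmoM2 (-0.0071, limma). Leaving out 1 library gave 0 to 1910 genes called in Gnas-eKO (0% to 11.8%), 673 to 2512 in PKI against Gnas-eKO (3.79% to 14.7%) and 14 to 79 in Gnas-eKO against SmoM2. It gave 4057 to 5466 genes called in PKI (24.1% to 33.7%) and 3401 to 4429 in PKI against SmoM2 (19.2% to 25.8%). It gave 0 to 5 members lower in Gnas-eKO, 0 to 4 lower in PKI, 1 to 6 higher in PKI against SmoM2 and 0 to 1 higher in PKI against Gnas-eKO. The log2 ranges of results that changed sign were, in Gnas-eKO, -0.09 to 0.15 for Dsg2, -0.00082 to 0.21 for Dsg3 and -0.0014 to 0.30 for Dsc2. They were -0.16 to 0.09 for Dsg3 in PKI against SmoM2 and -0.23 to 0.29 for Dsg1a in PKI against Gnas-eKO. In Gnas-eKO against SmoM2 they were -0.13 to 0.28 for Dsg1b, -0.18 to 0.21 for Dsc3, -0.10 to 0.25 for Dsp, -0.14 to 0.19 for Jup and -0.34 to 0.04 for Pkp1. The cause was not tested.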
